A study of Mus musculus with 12 samples.

Results

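The 10 genes described here encode core enzymes and scaffolds of the JNK pathway, and all cJun and H3K4me3 CUT&RUN peaks within 50 kb of their gene bodies were collected from the 4 peak lists of the study. The genes were the JNK kinases Mapk8, Mapk9 and Mapk10, the MAP2Ks Map2k4 and Map2k7, the JIP scaffolds Mapk8ip1, Mapk8ip2 and Mapk8ip3, and the MAP3Ks Map3k5 and Map3k12, out of 21755 protein-coding genes outside the Y chromosome (GENCODE vM21, GRCm38). Their windows covered 1.82 Mb and held 11 of the 4960 cJun peaks of DMSO-treated cells, 1 of the 1632 cJun peaks of JNKi-treated cells, 40 of 19372 H3K4me3 peaks with DMSO and 41 of 19032 with JNKi. The cells were Min6, a β cell line derived from a mouse insulinoma, which received DMSO alone as control or 20 µM of SP600125, a JNK inhibitor (JNKi), over 48 h. Reactions of 550000 cells received an antibody to cJun, to H3K4me3 or, as negative control, rabbit IgG. This gave 6 groups of 2 biological replicates, or 12 samples, and each of the 4 lists merged the replicates of 1 antibody and 1 treatment. Replicate values are held only for peaks that passed in both replicates, and as −log10 p, so no test of the treatment was made and differences between lists are given as values.

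JNKs are stress-activated MAP kinases at the end of a relay in which a MAP3K phosphorylates a MAP2K and the MAP2K phosphorylates JNK. JIP scaffolds hold these kinases together, and the transcription factor cJun is the substrate after which JNK is named. In β cells the pathway is best known as a mediator of cytokine, oxidative and ER stress. H3K4me3 is a histone mark of active or poised promoters, so its peaks show which start sites of the pathway genes carried the mark, while a cJun peak shows a site where the antibody to cJun recovered more DNA than IgG.

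Each peak carries a −log10 p against IgG from the first and the second replicate column of its list, and a global IDR. The global IDR, called IDR below, is the estimated share of irreproducible peaks among those at least as consistent between replicates. It is not the chance for the single peak. Lists were ranked by the lower of the replicate values, rank 1 being the strongest, and percentiles are positions in a list with 100 as the strongest. A −log10 p also depends on the depth of a library. The labels state the same target depth for every library, the depth reached was not analysed here, and values are therefore compared within a list or as percentiles. The replicates ranked peaks less alike for cJun (Spearman's rho over the peaks of a list of 0.375 with DMSO and 0.469 with JNKi) than for H3K4me3 (0.902 and 0.914). As a check of the labelled cell type, H3K4me3 lay within 3 kb of a start site for 7 of 8 β cell markers, the exception being Ins1, for 2 of 5 α and δ cell markers (Gcg and Irx2), for 0 of 6 acinar and duct markers and for 2 of 6 fibroblast, endothelial and leukocyte markers (Cd68 and Col1a1), with the same genes marked in both treatments. The Cd68 peak lay wholly beyond the 3′ end of that short gene. The highest-ranked promoter peaks of Pdx1, Gcg and Col1a1 had an IDR of 0.306 with DMSO.

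In DMSO-treated cells, cJun peaks lay within 50 kb of 6 of the 10 genes (Mapk10, Map2k7, Mapk8ip1, Mapk8ip2, Map3k5 and Map3k12), beside 28.4% of all protein-coding genes. In JNKi-treated cells only Map3k5 of the 10 had one, beside 12.2% of all genes. The windows of the 10 genes were longer than usual, with a median of 142 kb against 117 kb over all protein-coding genes, and counts over windows depend on that length. Within 3 kb of any annotated start site, the DMSO list held cJun peaks at 4 of the 10 genes (Mapk10, Map2k7, Mapk8ip1 and Map3k12) beside 7.90% of all genes, and the JNKi list at 0 of 10 beside 2.91%. All of the 10 genes had H3K4me3 within 3 kb of a start site, against 60.6% of all genes with DMSO. The cJun share among marked genes alone was not computed. The 10 genes had 3.50 annotated start sites each on average and all genes 1.90, and with the most upstream start site alone the counts were also 4 and 0. The DMSO list was the longer one, and its 1632 strongest peaks, as many as the JNKi list held, left 2 genes with a cJun peak in the window (Mapk10 and Map3k12) and 1 at the promoter (Map3k12), beside 12.8% and 3.04% of all genes for these peaks, against 1 and 0 with JNKi. The density of DMSO cJun peaks was 6.04 per Mb in the windows of the 10 genes and 3.04 per Mb in those of all protein-coding genes, and for the JNKi list the densities were 0.549 and 1.04 per Mb.

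**Figure D1:**
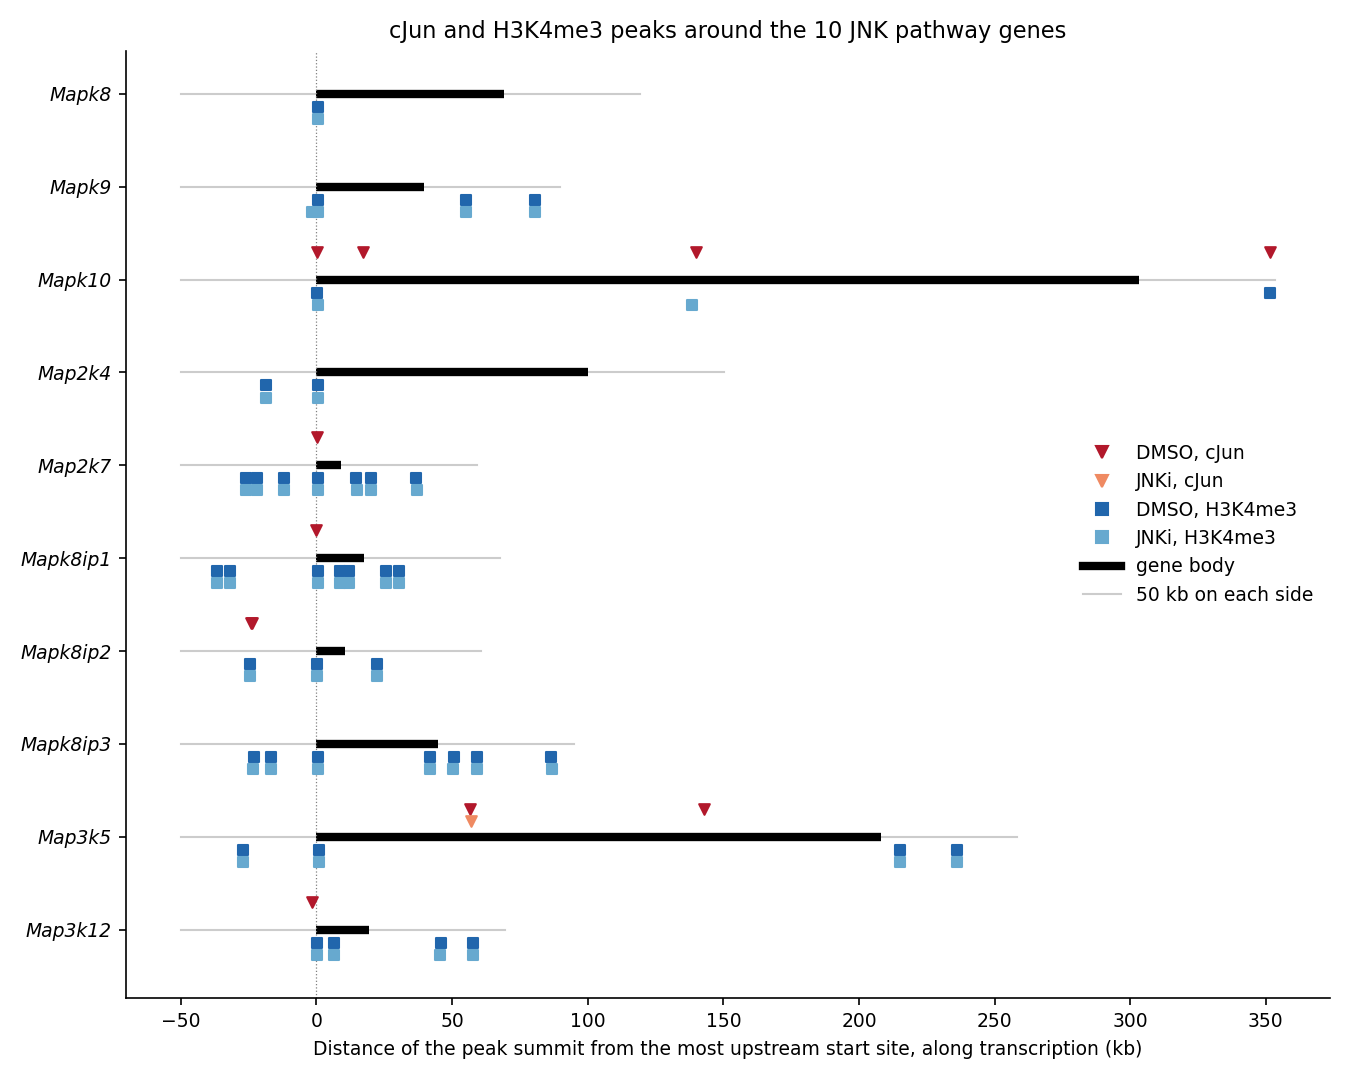
Each row is 1 gene, drawn to scale along its direction of transcription, with the distance of peak summits from the most upstream start site in kb on the horizontal axis. Triangles above a row are cJun peaks, squares below it H3K4me3 peaks, and every gene has an H3K4me3 square at its start in both treatments while a cJun triangle of the JNKi list appears once, in Map3k5.

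Of the 11 DMSO cJun peaks, 1 was overlapped by a JNKi cJun peak, beside 23.6% of the whole DMSO list. These peaks ranked between 1428 and 3860 of 4960, and of all 2433 DMSO peaks in that range of ranks 16.5% were overlapped. For the other 10 peaks the nearest JNKi cJun peak was 14435 to 1763974 bp away. By gene, 5 of the 6 genes with a DMSO cJun peak in the window had none in the JNKi list, beside 64.1% of such genes overall. A peak missing from the shorter list did not reach that list's threshold in both replicates, which is not a measurement of no binding.

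The IDR of the 11 peaks ran from 0.285 to 0.729, and 0 of 11 had an IDR of at most 0.05, beside 8.97% of the whole list. Ranked by IDR, the Map3k12 peak was at percentile 72.0 of the list and the Mapk10 intron peaks at 69.2 and 68.4, and the other 8 were at 19.5 to 45.7. The first replicate gave the higher −log10 p at 10 of the 11 peaks, against 55.6% of the list. Medians over the 11 peaks were 8.40 in the first and 5.66 in the second replicate, whereas the list had medians of 7.76 and 7.17. The second replicate was therefore below the list's median at most of these sites, and 3 of the 11 peaks ranked in the upper part of the list, above its median.

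**Figure D2:**
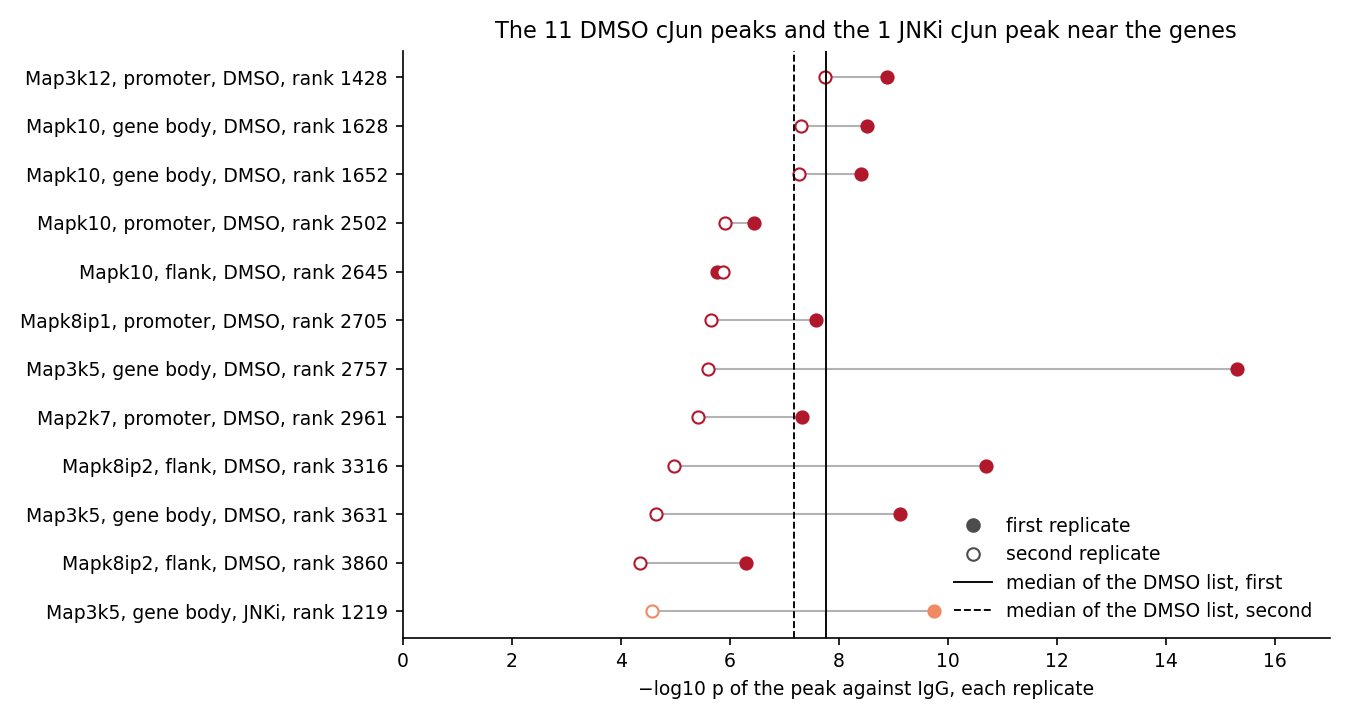
Each row is 1 cJun peak, named by its gene, its place (promoter: within 3 kb of a start site), its treatment and its rank in its own list, and the horizontal axis is the −log10 p against IgG. Filled points are the first and open points the second replicate, the vertical lines are the medians of the whole DMSO list (7.76 and 7.17), and the widest gap between replicates is at the Map3k5 peak of rank 2757 (15.3 and 5.60).

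Among the 3 JNK genes, cJun peaks were found at Mapk10 alone. Mapk8 (JNK1) and Mapk9 (JNK2), which encode the broadly expressed JNKs, had no cJun peak in the window in either list, and the nearest DMSO peaks were 916177 and 190653 bp from their gene bodies. Mapk10 encodes JNK3, the form known for expression in neurons and endocrine cells, and its gene, chr5:102907948-103211334 on the minus strand, is the longest of the set with a body of 303387 bp. It had 4 DMSO cJun peaks and 0 JNKi peaks within 50 kb.

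The promoter peak of Mapk10, chr5:103210835-103211274, had its summit in an exon 258 bp downstream of an annotated start site. Its −log10 p was 6.44 in the first and 5.91 in the second replicate (rank 2502, IDR 0.729). The replicate intervals shared 65.5% of the merged peak, and this was the one cJun peak among the 11 that contained a start site of its gene.

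Of the Mapk10 intron peaks, the one that ranked highest, chr5:103071000-103071657, had −log10 p of 8.51 and 7.31 (rank 1628, IDR 0.315), and the peak chr5:103193612-103194138, 17195 bp downstream of the nearest start site, had 8.40 and 7.27 (rank 1652, IDR 0.323). Both lay outside H3K4me3 peaks. The remaining peak, chr5:102859555-102860101, was 47847 bp beyond the 3′ end of Mapk10, in an intron of the neighbouring gene Arhgap24, with 5.77 and 5.87 (rank 2645, IDR 0.729). Its replicate intervals shared 27 bp, or 4.94% of the merged peak, against a median of 56.9% over the list. It overlapped the only H3K4me3 peak of the DMSO windows without a JNKi counterpart, which was itself weak at 6.93 and 5.42.

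Neither the Mapk10 promoter peak nor the intron peaks contained an AP-1 site, TGACTCA or its reverse complement TGAGTCA, the sequence that Jun-Fos dimers are known to bind, or a CRE, TGACGTCA, which reads the same on both strands, does not contain the AP-1 letters and is bound by Jun-ATF dimers. A CRE did lie 22 bases upstream of the start site of Mapk10, 82 bases outside the cJun peak and 344 bases from its summit. It was the only AP-1 or CRE match in the 14 RefSeq promoters of 300 bases found for 9 of the 10 genes (GRCm38.p6). Over all 32851 RefSeq promoters, 5.20% held an AP-1 site and 1.79% a CRE. The 250 bases before the start are shown with the CRE in capitals, because this is the promoter with the match, followed by the 121 bases around the summit of the highest-ranked Mapk10 intron peak, which hold neither motif.
Mapk10 promoter, chr5:103211335-103211584, minus strand: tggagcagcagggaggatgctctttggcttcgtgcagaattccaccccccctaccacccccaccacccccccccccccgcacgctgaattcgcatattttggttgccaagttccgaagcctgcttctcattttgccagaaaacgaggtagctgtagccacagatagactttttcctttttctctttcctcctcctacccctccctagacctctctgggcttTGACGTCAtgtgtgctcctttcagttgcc
Mapk10 intron peak, chr5:103071408-103071528, minus strand: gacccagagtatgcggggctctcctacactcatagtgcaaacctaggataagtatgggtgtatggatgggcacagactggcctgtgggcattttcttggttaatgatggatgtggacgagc

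Of the MAP2Ks, Map2k7 had a cJun peak in the window and Map2k4 had one just outside it. Map2k7 encodes MKK7, which phosphorylates JNK but not p38, and had 1 DMSO cJun peak at chr8:4238867-4239259, 38 bp from a Map2k7 start site and over its first exon. Its −log10 p was 7.33 and 5.42 (rank 2961, IDR 0.729), and its GC content of 70.7% was the highest of the 11. The gene model Gm49320 shares this start region, and the start site nearest to the summit, 64 bp away, is assigned to it, so the peak may be counted for either annotation. Map2k4, encoding MKK4, which acts on JNK and p38, had no cJun peak within 50 kb. The peak just outside the limit, chr11:65838815-65839422 in the DMSO list, was 50518 bp from Map2k4 with 5.55 and 4.02 (rank 4177, IDR 0.729). Just inside the limit was the Arhgap24 intron peak assigned to Mapk10.

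Among the scaffolds, Mapk8ip1 and Mapk8ip2 had DMSO cJun peaks and Mapk8ip3 had none. Mapk8ip1 encodes JIP1, also known as islet-brain 1 for its expression in β cells and neurons. Its peak, chr2:92401471-92401864, ended 208 bp upstream of the start site, in intergenic sequence covered by H3K4me3. The −log10 p was 7.58 and 5.66 (rank 2705, IDR 0.729), and the replicate intervals shared 42.4% of the peak. The 121 bases around its summit, read on the strand of the gene, are shown as the promoter site of a JIP scaffold, and hold no AP-1 site or CRE.
Mapk8ip1 upstream peak, chr2:92401519-92401639, minus strand: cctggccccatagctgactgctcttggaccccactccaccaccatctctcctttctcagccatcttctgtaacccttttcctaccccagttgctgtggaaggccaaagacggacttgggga

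The 2 DMSO peaks counted for Mapk8ip2, which encodes JIP2, were 24027 and 23212 bp upstream of it, at chr15:89429614-89429886 and chr15:89430075-89430701. Their summits lay 19 bp from a start site of Gm44502 and 283 bp from one of Chkb, which encodes choline kinase beta, so they were promoter peaks of other genes in the window. The first had −log10 p of 6.29 and 4.36 (rank 3860, IDR 0.729), the lowest rank of the 11, and the second 10.7 and 4.97 (rank 3316, IDR 0.506). Mapk8ip3, encoding JIP3, had its nearest DMSO cJun peak at 122554 bp and its nearest JNKi peak at 122524 bp.

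Map3k5 encodes ASK1, the MAP3K held inactive by thioredoxin until oxidative stress, and was the only gene of the 10 with a cJun peak in both lists. The shared site was in an intron of this gene of 208282 bp on chromosome 10. In the DMSO list it spanned chr10:19990468-19991723, with −log10 p of 9.12 and 4.65 (rank 3631 of 4960, IDR 0.729), and in the JNKi list chr10:19990934-19991684, with 9.75 and 4.58 (rank 1219 of 1632, IDR 0.469). The replicate intervals shared 93.9% of the DMSO peak but 30.4% of the JNKi peak, against a median of 58.9% over the JNKi list. As percentiles of their own lists the replicates were at 62.3 and 17.4 with DMSO and at 68.8 and 13.7 with JNKi. These percentiles overlapped, but the lists hold 4960 and 1632 peaks, so equal percentiles need not mean equal strength. The summits lay more than 200 bp apart, at 19991114 and 19991348. A further DMSO intron peak, chr10:20076856-20077799, had 15.3 and 5.60 (rank 2757, IDR 0.512), and its replicate intervals shared 20.7% of the merged peak.

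The Map3k5 peaks were the only cJun peaks of the set with AP-1 sites, 2 of 11 in the DMSO list beside 32.6% of the whole list. Within 100 bp of the summit the counts were 1 of 11 beside 10% of the list, and no peak of the 11 held a CRE beside 3.10%. The shared site has 1 AP-1 site, 171 bp from the DMSO summit and 63 bp from the JNKi summit. The peak of rank 2757 has 4, centred 451, 142 and 57 bp before the summit and 162 bp after it. The sequence of the shared site and the part of the other peak that holds the middle AP-1 sites are shown with the AP-1 letters in capitals.
Map3k5 intron peak of both lists, chr10:19991225-19991345, plus strand: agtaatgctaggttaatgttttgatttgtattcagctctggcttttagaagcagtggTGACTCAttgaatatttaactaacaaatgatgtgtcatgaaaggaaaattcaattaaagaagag
Map3k5 intron peak of the DMSO list, chr10:20077344-20077519, plus strand: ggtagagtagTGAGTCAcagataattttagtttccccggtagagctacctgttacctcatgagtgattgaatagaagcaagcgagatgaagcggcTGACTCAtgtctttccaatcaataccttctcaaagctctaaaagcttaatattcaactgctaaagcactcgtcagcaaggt

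Map3k12 encodes DLK, a MAP3K studied in neurons and as a regulator of β cell survival. Its promoter peak, chr15:102518227-102518627, was the highest ranked of the 11, with −log10 p of 8.88 and 7.75 (rank 1428, IDR 0.285), and both replicate intervals shared 93.0% of it. It lay 1163 bp upstream of Map3k12, and its summit was in the first exon of the divergent neighbour Tarbp2, 124 bp from that gene's start, so that it may be counted for either gene. This peak and the Mapk10 intron peak of rank 1628 were the 2 of the 11 that ranked within the first 1632 DMSO peaks, the length of the JNKi list.

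Overlap with H3K4me3 was found for 7 of the 11 DMSO cJun peaks, beside 53.4% of the list. These were the promoter peaks of Mapk10, Map2k7, Mapk8ip1 and Map3k12, the pair at Chkb and the Arhgap24 intron peak, whereas the Mapk10 and Map3k5 intron peaks lay outside the mark. The peaks were 273 to 1256 bp wide, with a median of 527 bp against 643 bp over the list.

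H3K4me3 marked the promoter of 10 of 10 genes in both treatments, beside 60.6% of protein-coding genes with DMSO and 60% with JNKi. At an IDR of at most 0.05 it remained at 10 genes with DMSO and at 9 with JNKi, where the Mapk8ip3 peak had an IDR of 0.282. Of the 40 DMSO peaks in the windows, 39 were overlapped by a JNKi peak, beside 93.4% of the list, and of the 41 JNKi peaks 39 were overlapped by a DMSO peak, beside 94.3%. The JNKi peaks without a partner were weak and contained no start site of the genes. One lay 1334 bp upstream of Mapk9 with −log10 p of 6.04 and 6.95, and the other was in an intron of Mapk10 with 11.6 and 7.68.

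Of 35 annotated start sites of the 10 genes, 27 were inside an H3K4me3 peak in each list, beside 55.7% of the start sites of all protein-coding genes with DMSO and 55.5% with JNKi. All 35 had the same state in both lists, beside 98.8% of all start sites. This counts every peak of the lists, including the JNKi peak over the Mapk8ip3 start sites, which had an IDR of 0.282. The 8 start sites outside the mark were internal ones. They comprised the pair of Mapk8 start sites about 36 kb into the gene (36181 and 36164 bp), the pair in Mapk9 at 7462 and 7506 bp, 3 in Mapk10 at 111253, 152948 and 184339 bp, and that of Map2k7-205 at 4524 bp. Internal start sites with a peak of their own were those of Mapk8ip1-202, 8532 bp downstream of the first start, and Map3k12-208, 6364 bp downstream. Thus 12 H3K4me3 peaks covered start sites of the 10 genes.

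**Figure D3:**
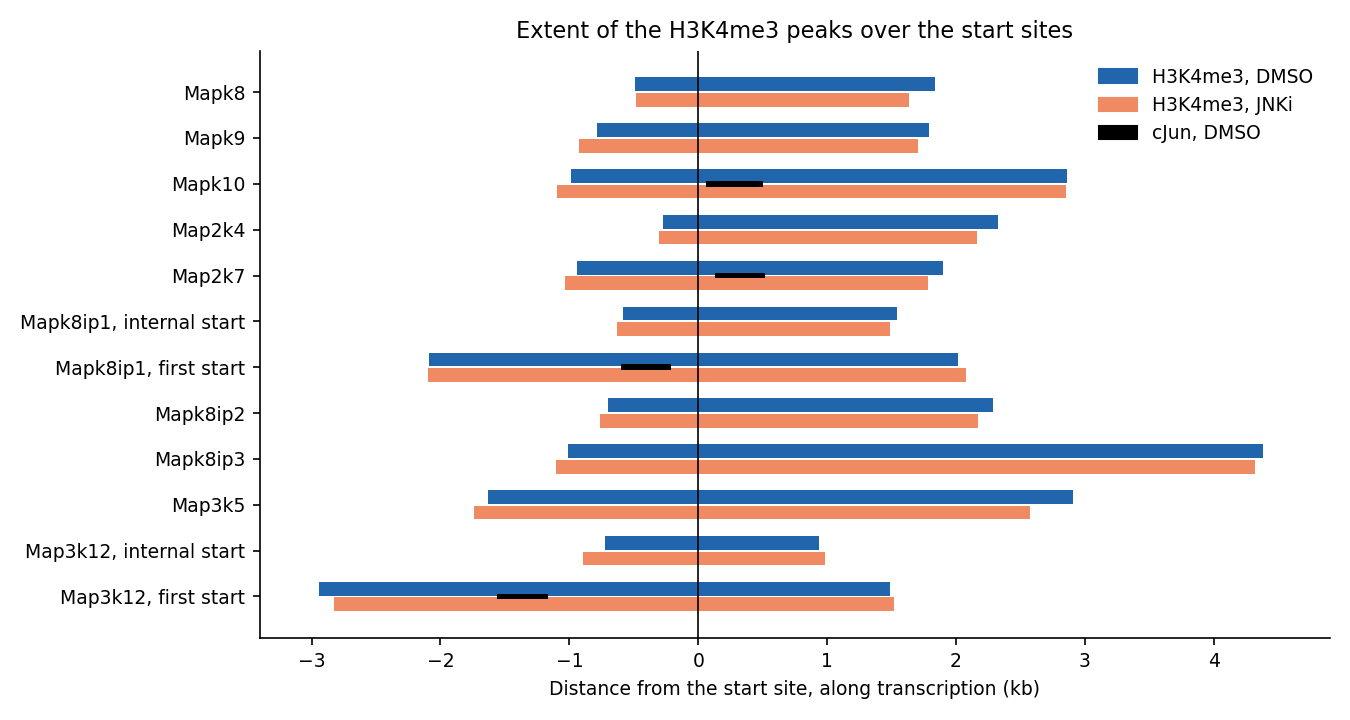
Bars span the H3K4me3 peaks over start sites of the 10 genes with DMSO and JNKi, along transcription, with the distance in kb from the most upstream start site inside the peak on the horizontal axis; black bars are DMSO cJun peaks. The DMSO and JNKi bars nearly coincide in each row, the widest being Mapk8ip3 (5396 and 5421 bp).

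The 12 peaks over start sites differed little in extent between lists. The ratio of JNKi to DMSO width ran from 0.909 at Mapk8 to 1.13 at the internal Map3k12 start, with a median of 0.997 against 1.01 over all 17494 paired peaks, for which the 5th to 95th percentiles were 0.796 to 1.29. The peak was wider with JNKi in 6 of 12. Most of these peaks reached further into the gene than upstream, and the peak of Mapk8ip3 extended 4381 bp downstream and 1014 bp upstream of its start with DMSO.

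To compare strength between separately ranked lists, replicate values were turned into percentiles of their own list, and a peak was called higher or lower only where both replicates of one treatment exceeded both of the other. For 9 of the 12 peaks over start sites the replicate percentiles overlapped between treatments, 1 was higher with JNKi, and 2 were lower, beside 13.8% and 22.7% of all paired peaks. Over all 39 paired peaks in the windows the counts were 26, 5 and 8. The counts for the peaks over start sites were no larger than the share of the whole list would give, and most of the further peaks in the windows lay at start sites of neighbouring genes. Within 3 kb of a start site there were 13 paired peaks, the added one lying inside Mapk8ip1 at chr2:92388179-92390500 with DMSO, and its percentiles overlapped too (62.6 and 69.7 against 66.4 and 65.5).

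Mapk10 was the start-site peak that was higher with JNKi. Its −log10 p was 272 and 229 with DMSO and 337 and 324 with JNKi, or percentiles of 70.7 and 71.1 against 73.0 and 79.7. Map2k4 was lower by percentile, at 92.6 and 86.6 with DMSO and 83.4 and 84.8 with JNKi, although its −log10 p overlapped (463 and 332 against 416 and 363). The peak at the internal Map3k12 start was lower by a few percentile points, at 58.6 and 61.4 against 57.0 and 57.4, from −log10 p of 186 and 172 against 220 and 171. Without ranking, 2 of the 12 were higher with JNKi (Mapk10 and the internal start of Mapk8ip1), or 3 of the 13 within 3 kb, and 0 were lower, beside 27.6% and 6.95% of all pairs on that scale, on a background in which the merged −log10 p had a median of 94.0 in the DMSO list and 114 in the JNKi list.

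**Figure D4:**
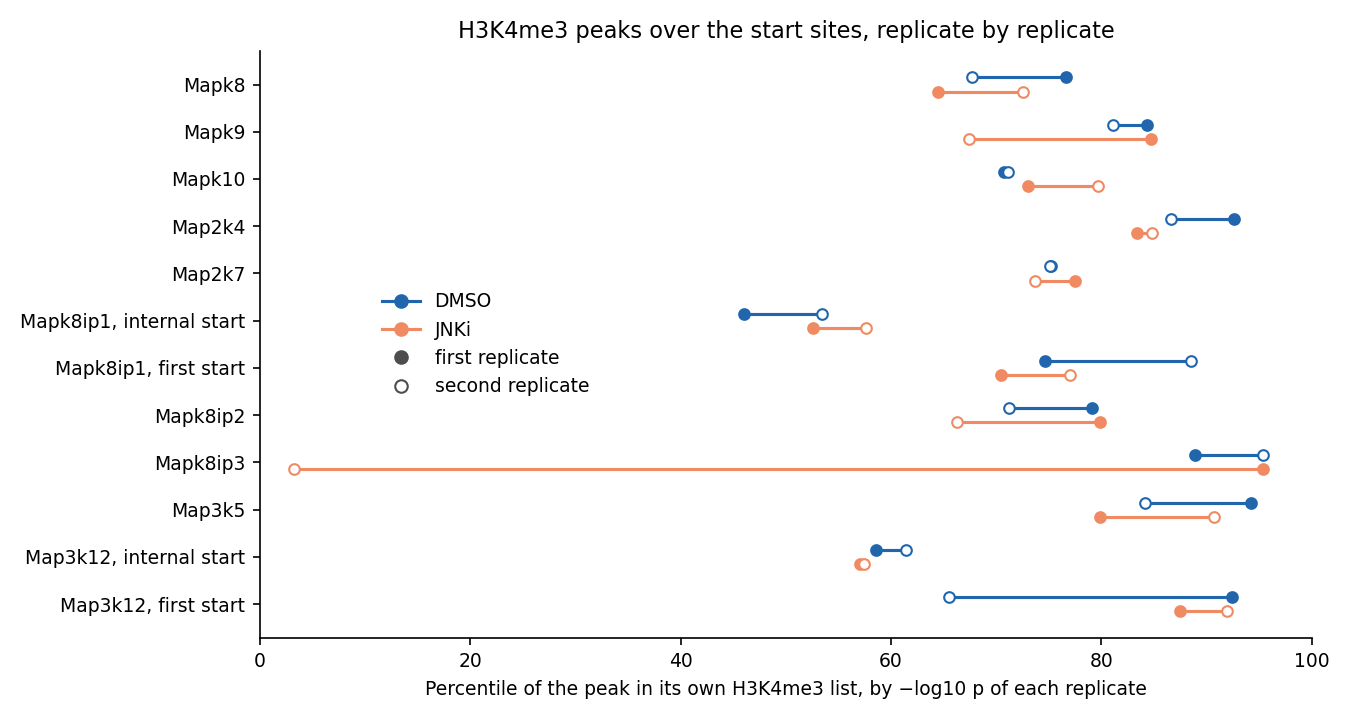
Each row is an H3K4me3 peak over a start site, and the horizontal axis is its percentile in its own list by the −log10 p of 1 replicate. Filled and open points are the first and second replicates, lines join the replicates of a treatment, and the JNKi line of Mapk8ip3 runs from 95.4 to 3.22 while most other lines of a row overlap.

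The other JNK promoters overlapped between treatments. Mapk8 had −log10 p of 314 and 209 with DMSO and 275 and 273 with JNKi (IDR 0.00170 and 0.00183). Mapk9 had 373 and 291 with DMSO and 428 and 239 with JNKi (IDR 0.00141 and 0.00414). The percentiles overlapped in both genes, at 76.6 and 67.7 against 64.5 and 72.5 for Mapk8 and at 84.3 and 81.1 against 84.7 and 67.4 for Mapk9.

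Map2k7, the MKK7 gene, had 304 and 253 with DMSO and 370 and 282 with JNKi, with nearly unchanged percentiles of 75.2 and 75.1 against 77.5 and 73.7. Among scaffolds, Mapk8ip1 had 299 and 349 with DMSO and 319 and 306 with JNKi at its first start, and Mapk8ip2 had 333 and 230 against 387 and 232. Neither gene's groups separated. At the internal Mapk8ip1 start, that of the annotated transcript Mapk8ip1-202, the values were 97.4 and 125 with DMSO and 186 and 172 with JNKi. Those −log10 p did not overlap, whereas the percentiles did (46.0 and 53.4 against 52.6 and 57.6).

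Mapk8ip3 stood apart for the gap between its JNKi replicates. With DMSO it was among the strongest peaks of the list, at 418 and 433 (rank 970, IDR 0.00324). With JNKi the first replicate gave 557 and the second 4.92, so the merged peak ranked 18224 of 19032 with an IDR of 0.282, although the replicate intervals shared 93.4% of its 5421 bp. The replicate percentiles differed by 92.1 points, against a median of 3.93 over the JNKi list, and only 35 JNKi peaks (0.184%) had a gap as large. The low merged rank of this promoter thus rests on the value listed for the second replicate, and whether that value belongs to the main peak of this promoter in that replicate cannot be read from the list.

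Among the MAP3Ks, Map3k5 had 489 and 312 with DMSO and 387 and 421 with JNKi, which overlapped. The first start of Map3k12 had 460 and 197 with DMSO and 453 and 435 with JNKi. Its merged percentile was 67.1 with DMSO, set by the lower second replicate, and 92.4 with JNKi, and the percentiles of the DMSO replicates (92.4 and 65.5) enclosed those of the JNKi replicates (87.5 and 91.9).

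The rest of the pathway was read from fixed gene lists at promoters, within 3 kb of a start site. H3K4me3 was present at every gene of each of these lists in both treatments. For cJun, the DMSO list held promoter peaks of 3 of 22 other MAP3K and MAP4K genes, and the JNKi list of 0. Of 21 other scaffold and adaptor genes 6 had a DMSO and 1 a JNKi peak, the latter at a start site inside Spag9, which encodes the scaffold JIP4, at percentile 87.8 with DMSO and 83.6 with JNKi. Of 12 JNK substrates 3 had a peak in each list, and Jun itself was the one in both, at percentile 90.5 with DMSO and 87.6 with JNKi. The shares for the 10 kinases and scaffolds were 40.0% with DMSO and 0 with JNKi. They stand beside 13.6% and 0 for other upstream kinases, 28.6% and 4.76% for other scaffolds and adaptors, and 25.0% and 25.0% for substrates. Over all protein-coding genes the shares were 7.90% and 2.91%.

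JNK-directed phosphatases, which end the signal, had DMSO cJun peaks at 5 of 7 promoters and JNKi peaks at 3 of 7. Those in both lists were Dusp16, at percentile 99.1 with DMSO and 99.6 with JNKi, Dusp1, at percentile 96.3 with DMSO and 94.9 with JNKi, and Dusp8, at percentile 60.7 with DMSO and 92.6 with JNKi. Within each list these peaks ranked above every cJun peak near the 10 kinases and scaffolds, except for Dusp8 with DMSO. As a comparison from the parallel branches, 0 of 12 ERK and p38 kinase and MAP2K genes had a DMSO and 1 a JNKi peak. Of the 8 β cell markers used for the cell type check, 6 had a promoter cJun peak with DMSO and 4 with JNKi. The pathway lists hold 7 to 22 genes, were written with earlier results known, and differences between them were not tested.

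**Figure D5:**
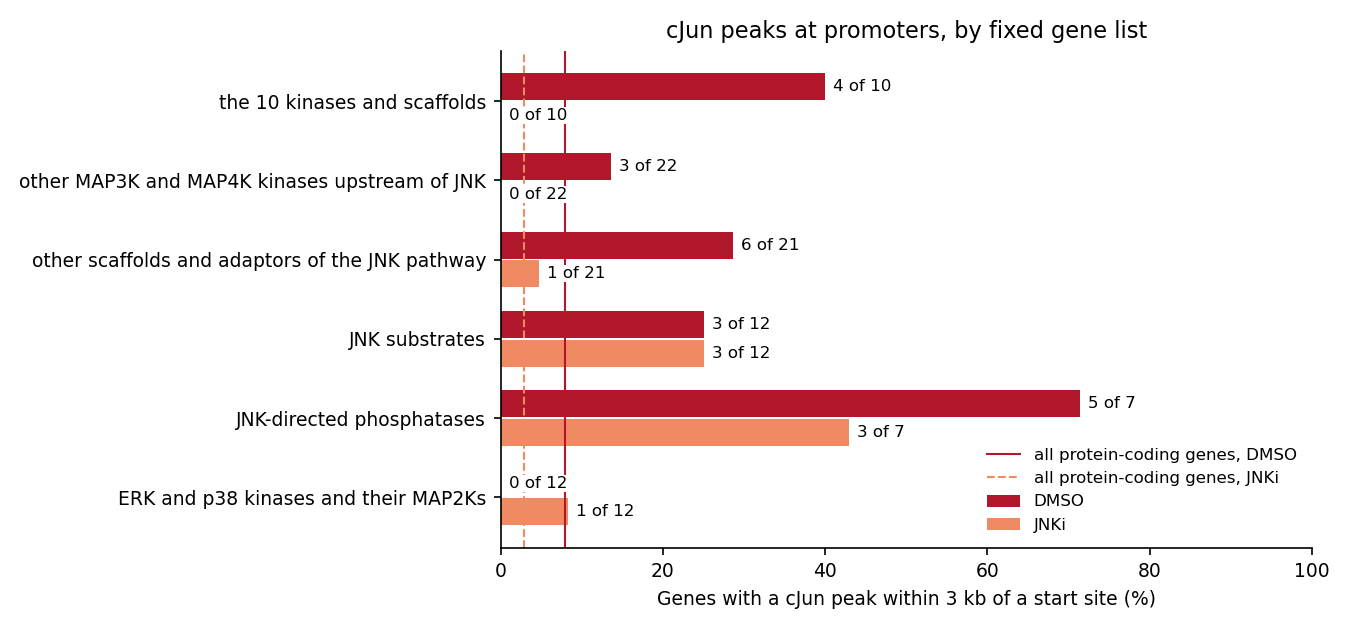
Bars give the percent of genes in each fixed list with a cJun peak within 3 kb of a start site, with counts beside them, and vertical lines mark the share over all protein-coding genes (7.90% with DMSO, 2.91% with JNKi). The 10 kinases and scaffolds have 4 and 0, and the phosphatases have the longest bars of these 6 lists, 5 and 3 of 7.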

How the data were processed

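CUT&RUN peak lists from Min6 cells were analysed. Per the submitters' processing notes and the study's methods, the authors trimmed reads with Trimmomatic, aligned them to GRCm38 with Bowtie2 2.4.2, filtered with SAMtools 1.16, called peaks per replicate with MACS2 2.2.7.1 against IgG and paired replicates by IDR. deepTools 3.5.1 and bedtools 2.30 are also named. The 4 deposited lists give −log10 p-values for each replicate and the merged peak, which equals the lower replicate value, and the IDR as a −log10 score, and signal and q-value columns hold a placeholder. Replicate columns carry no number and are called first and second. The lowest −log10 p was just above 3, whereas the stated calling was with defaults. Reads and the signal of IgG were not used here, so the depth reached is not given, and lists hold only peaks found in both replicates.

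Peaks were assigned with Python 3.11.15 and pandas 2.3.3 to genes of the GENCODE vM21 basic annotation. A promoter was 3 kb around a start site, an overlap at least 1 bp, and motifs were matched exactly on both strands. Peaks were ranked by the merged −log10 p. The shares over all genes or all peaks of a list were computed with the same rules. Members, gene lists and comparisons were chosen with earlier results of these data known. Values are given for all cJun peaks near the 10 genes and for H3K4me3 peaks over their start sites; of other pathway genes those with a promoter cJun peak in both lists are named, at most 3 a list. The scripts were tested on simulated peaks. Sequences came from the GRCm38 genome and RefSeq promoters (GRCm38.p6), and the Map3k12 promoter peak is not printed since its summit is in an exon of Tarbp2. Alternatives were the window, promoter distance, overlap rule, IDR limit, list length and replicate column used.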

Additional observations from a re-analysis of the deposited data

How the results depend on the processing

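Of 80 alternative values of the counts, 47 were within 1.5 times the reported count. At an IDR of at most 0.05 or 0.01 no cJun peak remained near the 10 genes, so the DMSO counts of genes, peaks and promoters and the JNKi counts of genes and peaks were 0, and the counts of retained, H3K4me3-overlapping and AP-1-bearing cJun peaks could not be made. At both limits H3K4me3 remained at the promoters of 10 genes with DMSO and of 9 with JNKi, where Mapk8ip3 was lost. Limiting the DMSO cJun list to the length of the JNKi list left 2 genes, 2 peaks and 1 promoter. With windows of 10 kb the H3K4me3 counts were 18 and 20, retained H3K4me3 peaks 18 and cJun peaks at H3K4me3 4. With gene bodies only, 3 genes and 6 DMSO cJun peaks were counted, H3K4me3 peaks were 14 and 15, those retained 14 and cJun peaks at H3K4me3 2. With 100 kb, JNKi cJun counts were 2 genes and 2 peaks and 2 DMSO peaks were retained, the added one at the Arhgap24 promoter. These shifts follow from fewer or more peaks being counted. With summits at most 200 bp apart, 0 cJun peaks were retained and 2 lay at H3K4me3, and with a reciprocal overlap of 50% 1 did. AP-1 sites were at 0 peaks within 50 bp of the summit and at 2 anywhere in the peak. Unranked −log10 p, an alternative chosen after seeing the data, gave 2 H3K4me3 peaks over start sites higher and 0 lower with JNKi; over all pairs 27.6% were higher and 6.95% lower.

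Of 108 alternative percentiles of 36 named peaks, 45 were within 1 SD of the replicates. By the second replicate alone 0 of 12 cJun peaks were above their reported percentile (range 13.7 to 56.3), and by the first alone 7 were (27.4 to 88.4). For the second this follows from the merged value being the lower of the replicates, which was the second in all but 1 of these peaks. No paired analysis was possible because the values of a treatment come merged in 1 list whose replicates are unnumbered. Counts of peaks without a replicate could not be made, as the lists hold only peaks of both, and the percentiles by 1 replicate column stand in for them.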

Other observations

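Most further H3K4me3 peaks in the windows lay at start sites of neighbouring genes. By the replicate percentiles, 4 of the 27 paired peaks that covered no start site of the 10 genes were higher with JNKi and 6 lower, close to the 13.8% and 22.7% of all pairs, so these counts do not set the windows apart. By unranked −log10 p, 11 were higher and 0 lower, a scale on which 27.6% of all pairs were higher and 6.95% lower. The higher ones by percentile were the promoters of Map7, which encodes a microtubule-associated protein (87.6 and 89.0 with DMSO against 90.5 and 92.5 with JNKi), Pcbp2, which encodes an RNA-binding protein (64.5 and 70.6 against 74.0 and 76.6), Snapc2, a subunit of the snRNA-activating complex (57.1 and 53.6 against 65.4 and 59.1), and that of Ctxn1. The lower ones included Timm44, of the mitochondrial import machinery (69.8 and 69.7 against 65.1 and 63.4), Jpt2 (83.8 and 94.5 against 83.4 and 78.7), Large2 (52.3 and 60.7 against 50.4 and 49.3) and the circadian repressor gene Cry2 (86.4 and 84.6 against 83.2 and 80.2). The remaining lower peaks were weak ones in Rasgef1c (17.2 and 14.8 against 13.1 and 7.38) and Prr36 (19.1 and 13.5 against 10.8 and 9.08). At Pex7, upstream of Map3k5, the second DMSO replicate was far below the first in −log10 p (85.3 and 7.91), whereas the JNKi values were 139 and 65.9.

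Mapk8ip1 carried a further H3K4me3 peak inside its body, chr2:92388179-92390500 with DMSO, with no Mapk8ip1 start site in it. It had −log10 p of 214 and 221 with DMSO and 289 and 226 with JNKi, and the nearest annotated start site was that of the miRNA gene Mir7000, 1804 bp from the DMSO summit.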
